A study of Ovis aries with 16 samples.

Results

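MIR103 and MIR107 are the sheep genes of miR-103 and miR-107, small RNAs that repress messenger RNAs. They are the rows carrying those names in the miRNA table, 2 of its 105 miRNAs; no further row of MIR103 with a suffix was present. The small RNA libraries came from 8 female sheep, a liver and a muscle library each, and the 16 libraries make up 4 groups of 4. Ewes 48, 185, 233 and 255 had been exposed to testosterone before birth (prenatal T), and ewes 98, 131, 132 and 201 were controls. Dose, timing of the exposure and age at sampling are not given in the labels. Groups were liver of prenatal T ewes, liver of control ewes, muscle of prenatal T ewes and muscle of control ewes.

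A miRNA recognises its target messages chiefly through the seed, a short stretch near its 5′ end. miR-103 and miR-107 have nearly the same mature sequence and share their seed. In mice, raising them in liver or fat impairs glucose handling, silencing them improves insulin sensitivity, and caveolin-1, a membrane protein that steadies the insulin receptor in fat cells, is a known target. Both genes sit inside genes for pantothenate kinases, the enzymes that start coenzyme A synthesis. In the sheep annotation ARS-UI_Ramb_v3.0, MIR103 lies inside PANK3, with LOC101121850 and SLIT3 as the next genes. MIR107 lies inside PANK1, between LOC114110280 and KIF20B. LOC114110280, an annotated non-coding neighbour of MIR107, had 0 to 5 reads in any library, too few to compare. How the counting shared out reads that match both miRNAs is not given in the sources used here, so their separate levels are uncertain to that extent. MIR29B-1 and MIR29B-2 held equal reads in 16 of 16 libraries, and MIR103 and MIR107 in 0 of 16. Unequal rows do not show that reads matching both miRNAs were kept apart, so the limit also holds for their ratio and their likeness.

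Libraries held 206304 to 755344 miRNA reads in liver and 113522 to 885316 in muscle. The muscle-specific MIR133 made up 37.2% to 56.4% of muscle miRNA reads, and the liver markers MIR148A and MIR194 together 9.97% to 14.6% of miRNA reads in prenatal T livers and 10.7% to 13.7% in control livers, so both tissue labels matched their markers. Library numbers in the sample descriptions fall into a lower run, set 1 (2 livers and 7 muscles), and a higher run, set 2 (6 livers and 1 muscle); what separates the sets is not stated. Libraries from a pair of ewes stood apart. The liver library of control ewe 98 deviated from the other livers by a median of 0.37 (absolute log2) over 81 miRNAs, against 0.17 to 0.33 for the other livers, and held 816 normalised MIR133 reads against 123 to 255. The muscle library of prenatal T ewe 255, the shallowest, deviated by 0.48 over 64 miRNAs, against 0.12 to 0.20 for the other muscles, and had the lowest MIR133 share. Prenatal T changes of the pair within each tissue, and of their ratio, are given with and without them.

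Both miRNAs were moderately abundant and kept nearly the same place in the abundance order. MIR103 ranked 32 to 34 among the miRNAs of a liver and 34 to 36 among those of a muscle, and MIR107 ranked 35 to 39 in liver and 39 to 46 in muscle. MIR103 was counted with 574 to 1811 reads in liver (median 855) and 65 to 761 in muscle (median 315). MIR107 had 372 to 1056 reads in liver (median 486.5) and 21 to 297 in muscle (median 132). The lowest muscle counts, 65 and 21, were those of ewe 255, where counting alone gives an error of 12.4% for MIR103 and 21.8% for MIR107.

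As a share of miRNA reads, MIR103 took 0.238% ± 0.0303 in prenatal T livers and 0.237% ± 0.0884 in control livers, against 0.0702% ± 0.0118 in prenatal T muscles and 0.0738% ± 0.00862 in control muscles (SD, n = 4 each). MIR107 took 0.155% ± 0.0303 in prenatal T livers and 0.135% ± 0.0338 in control livers, against 0.0268% ± 0.00628 in prenatal T muscles and 0.0309% ± 0.00163 in control muscles (SD, n = 4 each). The order was thus liver over muscle for both, and within a tissue neighbouring groups overlapped. A share in 1 library is precise to its counts: MIR107 took 0.0185% in the muscle of ewe 255 (95% Wilson interval 0.0121 to 0.0283%, counting error only). Next to MIR103 in the abundance order stood MIR200B above and MIR379 below in prenatal T livers, MIR23A and MIR379 in control livers, MIR21 and MIR30B in prenatal T muscles, and MIR106B and MIR30B in control muscles. Next to MIR107 stood MIR221 and MIR150 in prenatal T livers, MIR221 and MIR200A in control livers, and MIR152 and MIR379 in both muscle groups.

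Whether exposure before birth altered the pair was first asked in liver, the organ that sets glucose output. Neither MIR103 nor MIR107 passed the test. MIR103 had 891, 870, 944 and 816 normalised reads in livers of prenatal T ewes 48, 185, 233 and 255, against 1324, 771, 799 and 722 in livers of control ewes 98, 131, 132 and 201. The prenatal T livers lay close together and inside the control range, which ewe 98 stretched upward. The means were 880 ± 53.3 in prenatal T livers and 904 ± 282 in control livers (SD, n = 4 each), a log2 fold change of 0.0048 ± 0.23 (SE; 95% interval -0.48 to 0.49; limma adjusted p = 0.988 over 81 miRNAs). In bulk tissue, fewer cells of a type and less RNA per cell cannot be told apart.

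MIR107 had 519, 526, 660 and 570 normalised reads in livers of prenatal T ewes 48, 185, 233 and 255, against 663, 483, 479 and 440 in livers of control ewes 98, 131, 132 and 201. Again the control liver of ewe 98 was the highest of its group, and the groups overlapped through it. The means were 569 ± 64.7 and 516 ± 99.9 (prenatal T and control; SD, n = 4 each), a log2 fold change of 0.15 ± 0.21 (SE; 95% interval -0.30 to 0.60; limma adjusted p = 0.959). Limma called no miRNA in liver (0% of 81; 0 had a p under 0.05 before adjustment), nor did edgeR or DESeq2 (0 each), so 0 of the pair was called against a background of 0%. The spread of the pair within groups differed: the coefficient of variation of MIR103 was 6.05% in prenatal T livers and 31.2% in control livers, and that of MIR107 was 11.4% and 19.4%, beside medians over all 81 miRNAs of 21.9% and 21.1%. In prenatal T livers MIR103 had the 2nd lowest coefficient of variation and MIR107 the 9th, and in control livers they ranked 55th and 37th from the lowest. The wider control spread rested on ewe 98. Without that liver the control SD was 38.8 for MIR103 and 23.8 for MIR107, below the 53.3 and 64.7 of prenatal T livers.

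Without the liver of ewe 98, every prenatal T liver lay above every control liver for both members. That liver held the highest control value of both, so leaving it out could only favour such a separation. MIR103 then averaged 880 ± 53.3 in 4 prenatal T livers and 764 ± 38.8 in 3 control livers, and MIR107 569 ± 64.7 and 467 ± 23.8 (SD). Of the 81 miRNAs, 4.94% were separated in this direction, so MIR103 and MIR107 were 2 of 4 such miRNAs; with all 8 livers the share was 1.23% and neither was among them. The pair may share reads and varied together within the 8 livers (Pearson's r 0.885), so these are not 2 separate observations. The log2 fold changes were 0.20 for MIR103 and 0.28 for MIR107, and limma called neither (adjusted p = 0.878 each, within ranges of 0.878 to 1 and 0.878 to 0.995 over all alternatives). Library set 2 alone, with 3 livers a group, keeps the same 3 control livers and also leaves out the liver of prenatal T ewe 48. Any miRNA separated without ewe 98 stays separated there, so its 4.94% is no second check. The log2 fold changes in set 2 were 0.20 for MIR103 and 0.32 for MIR107, and again neither was called (limma adjusted p = 0.943 each).

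**Figure D1:**
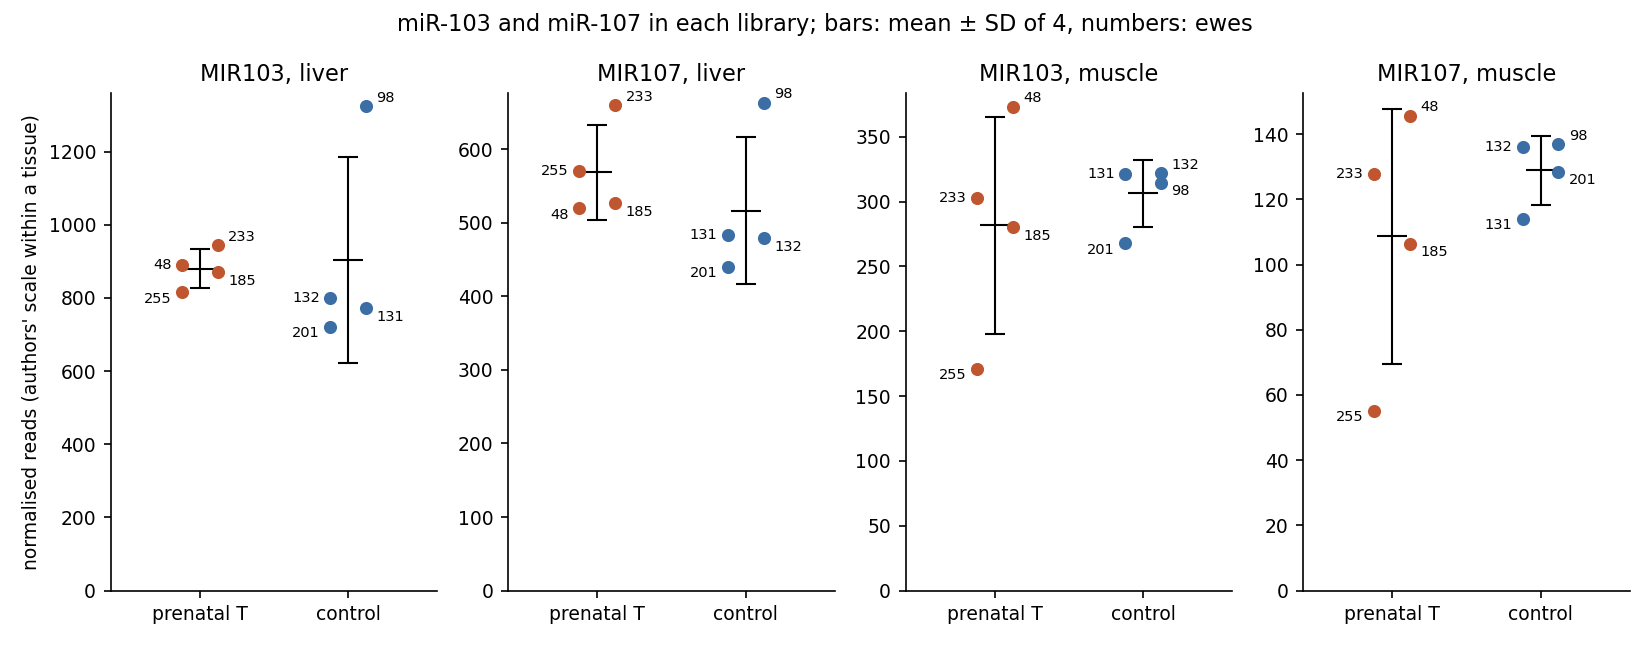
Normalised reads of MIR103 and MIR107 (vertical axes, on the authors' scale within a tissue) in each library, with a point per ewe labelled by its number and bars for the mean ± SD of 4 libraries, prenatal T left of control. The liver of control ewe 98 lies at the top of its group for both miRNAs, at 1324 and 663 normalised reads, and the muscle of prenatal T ewe 255 at the bottom, at 171 and 55.2.

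In muscle, which takes up most of the glucose cleared after insulin, the means of both members were lower in prenatal T ewes, and neither passed the test. MIR103 had 373, 280, 302 and 171 normalised reads in muscles of prenatal T ewes 48, 185, 233 and 255, against 314, 321, 322 and 268 in muscles of control ewes 98, 131, 132 and 201. Prenatal T muscles held both the highest value (ewe 48) and the lowest (ewe 255), on either side of the controls. The means were 282 ± 83.8 in prenatal T muscles and 306 ± 25.9 in control muscles (SD, n = 4 each), a log2 fold change of -0.17 ± 0.23 (SE; 95% interval -0.66 to 0.32; limma adjusted p = 0.788 over 64 miRNAs).

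MIR107 had 146, 106, 128 and 55.2 normalised reads in muscles of prenatal T ewes 48, 185, 233 and 255, against 137, 114.02, 136 and 128 in muscles of control ewes 98, 131, 132 and 201. The same prenatal T ewes, 48 and 255, marked the ends of the range. The means were 109 ± 39.1 in prenatal T muscles and 129 ± 10.6 in control muscles (SD, n = 4 each), a log2 fold change of -0.33 ± 0.28 (SE; 95% interval -0.93 to 0.28; limma adjusted p = 0.778). Limma called 0% of the 64 miRNAs (5 had a p under 0.05 before adjustment), as did edgeR and DESeq2 (0 each), and the pair's 0 stands beside that background.

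The muscle libraries of prenatal T ewes 255 and 48 set the size of the difference for both members. Without the muscle of ewe 255, which is also what library set 1 alone leaves, MIR103 averaged 319 ± 48.6 in 3 prenatal T muscles and 306 ± 25.9 in 4 control muscles, and its log2 fold change was 0.050 (limma adjusted p = 0.934). MIR107 then averaged 127 ± 19.7 and 129 ± 10.6 (SD), with a log2 fold change of -0.034 (limma adjusted p = 0.9502). Without the muscle of ewe 48 the changes were -0.32 for MIR103 and -0.49 for MIR107 (limma adjusted p = 0.396 and 0.367, at the low end of ranges of 0.396 to 0.969 and 0.367 to 0.952 over all alternatives). In the muscle of ewe 255, MIR103 lay 0.87 and MIR107 1.20 below the other muscles on the log2 scale, and MIR133 stood at 37.2% of miRNA reads against 49.98% to 56.4% in the others; the part of this library's make-up in the result was not tested.

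**Figure D2:**
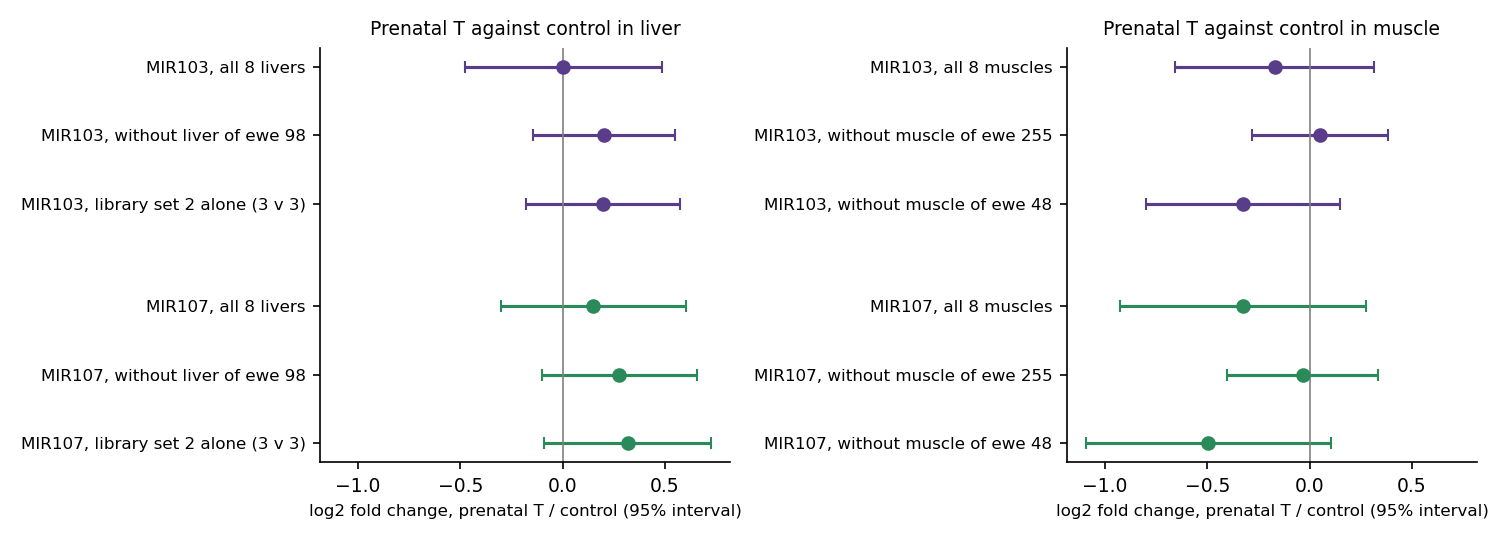
Log2 fold change of MIR103 and MIR107, prenatal T over control (horizontal axes; points with 95% intervals from limma), in liver and muscle, with all libraries and without those that stood apart. All 12 intervals span 0; in muscle the point for MIR103 stands at -0.17 with all libraries and at 0.050 without ewe 255.

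How far the response of the pair differed between the organs, the prenatal T effect in liver minus that in muscle, was tested directly. It was 0.18 ± 0.34 (log2, SE; limma adjusted p = 0.873) for MIR103 and 0.48 ± 0.37 (95% interval -0.28 to 1.23; limma adjusted p = 0.752) for MIR107. Neither was called, nor was any of the 76 miRNAs (0%; 2 had a p under 0.05 before adjustment). Without ewe 255 the differences were -0.0094 for MIR103 and 0.18 for MIR107. Within library set 1 the differences for MIR103 and MIR107 were negative, at -0.62 and -0.32. That set has 1 liver a group, ewe 48 against ewe 98, so these are values of single livers, given without a test.

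Levels in the tissues were compared on reads placed on a common scale over all 16 libraries, because the deposited values are scaled within a tissue. MIR107 was higher in liver than in muscle in both sets of ewes. In the main test, which did not pair the tissues of an ewe, MIR103 passed in neither. Most livers were in library set 2 and most muscles in library set 1, so tissue and library set largely cannot be told apart. On the common scale MIR107 averaged 373 ± 47.1 reads in livers and 163 ± 58.4 in muscles of prenatal T ewes, and 329 ± 36.5 in livers and 198 ± 21.3 in muscles of control ewes (SD, n = 4 each). Its liver over muscle fold was 2.41 in prenatal T ewes (log2 1.27 ± 0.25 SE, limma adjusted p = 9.5e-05) and 1.66 in control ewes (log2 0.73 ± 0.25 SE, limma adjusted p = 0.0147). Over all ewes the livers spanned upward from 302 and the muscles reached 217, so the tissues did not overlap. Of 76 miRNAs, 31.6% were separated in that direction and 25% in the other. MIR107 was among the 39.5% of miRNAs called higher in liver in prenatal T ewes and the 40.8% in control ewes; 28.9% and 27.6% were called lower, which made 68.4% called in each, so a call was common. In control ewes the MIR107 call was lost when ewe 131 was left out (log2 0.67, limma adjusted p = 0.0656, within a range of 3.3e-10 to 0.0656 over all alternatives). Without ewe 255 the MIR107 difference in prenatal T ewes was 0.96 (log2, limma adjusted p = 0.00027). Without ewe 98 that in control ewes was 0.69 (limma adjusted p = 0.0449).

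MIR103 averaged 577 ± 42.7 reads in livers and 423 ± 127 in muscles of prenatal T ewes, and 573 ± 129 in livers and 470 ± 41.2 in muscles of control ewes on the common scale (SD, n = 4 each). The tissues overlapped, with the lowest liver at 496 and the highest muscle at 556. Its liver over muscle fold was 1.42 in prenatal T ewes (log2 0.50 ± 0.23 SE, limma adjusted p = 0.0529) and 1.20 in control ewes (log2 0.27 ± 0.23 SE, limma adjusted p = 0.286). With the ewe as a replicate block, which uses that both tissues came from the same animals, the value in prenatal T ewes passed the threshold (limma adjusted p = 0.0399, within a range of 5.8e-10 to 0.273 over all alternatives) and that in control ewes did not (limma adjusted p = 0.255). Without ewe 48 the MIR103 value in prenatal T ewes also passed (log2 0.64, limma adjusted p = 0.0319). Library set 1 holds 1 liver of each group, that of ewe 48 and that of ewe 98, which stood apart, so its values are given without a test. The log2 changes there were 0.31 for MIR103 and 0.86 for MIR107 in prenatal T ewes, and 0.71 and 0.96 in control ewes.

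The size of these tissue differences depended on the common scale. MIR133 alone fills much of a muscle library and little of a liver library, so a share of all miRNA reads is lower in muscle for most other miRNAs. As a share of miRNA reads MIR103 took 0.238% ± 0.0612 in 8 livers and 0.0720% ± 0.00978 in 8 muscles, and MIR107 0.145% ± 0.0316 and 0.0289% ± 0.00479 (SD). Both were then without overlap, as were 60.5% of the 76 miRNAs in that direction and 5.26% in the other. Scaled to total miRNA reads, the log2 differences in prenatal T ewes were 1.77 for MIR103 and 2.53 for MIR107, but the median over all miRNAs moved too, and was 1.495, against 0.23 on the main scale. With that median subtracted, MIR103 stood at 0.27 on the main scale, 0.27 with TMM factors, 0.27 scaled to total miRNA reads and 0.26 scaled to the total of the 4 RNA classes in prenatal T ewes, and MIR107 at 1.04, 1.03, 1.04 and 1.03. In control ewes MIR107 stood 0.47, 0.47, 0.46 and 0.46 above the median, and MIR103 0.0011, 0.0012, 0 and -0.00059 from it. Each scaling multiplies whole libraries, so it moves all miRNAs by nearly the same log2 amount. The distances from the median were therefore bound to agree, apart from the pseudocount and the filter, and their agreement is no check. Calls over all miRNAs split into 30 higher and 22 lower in prenatal T ewes and 31 and 21 in control ewes on the main scale, 56 and 7, and 57 and 4, scaled to total miRNA reads, and 69 and 2, and 74 and 4, scaled to the total of the 4 classes.

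**Figure D3:**
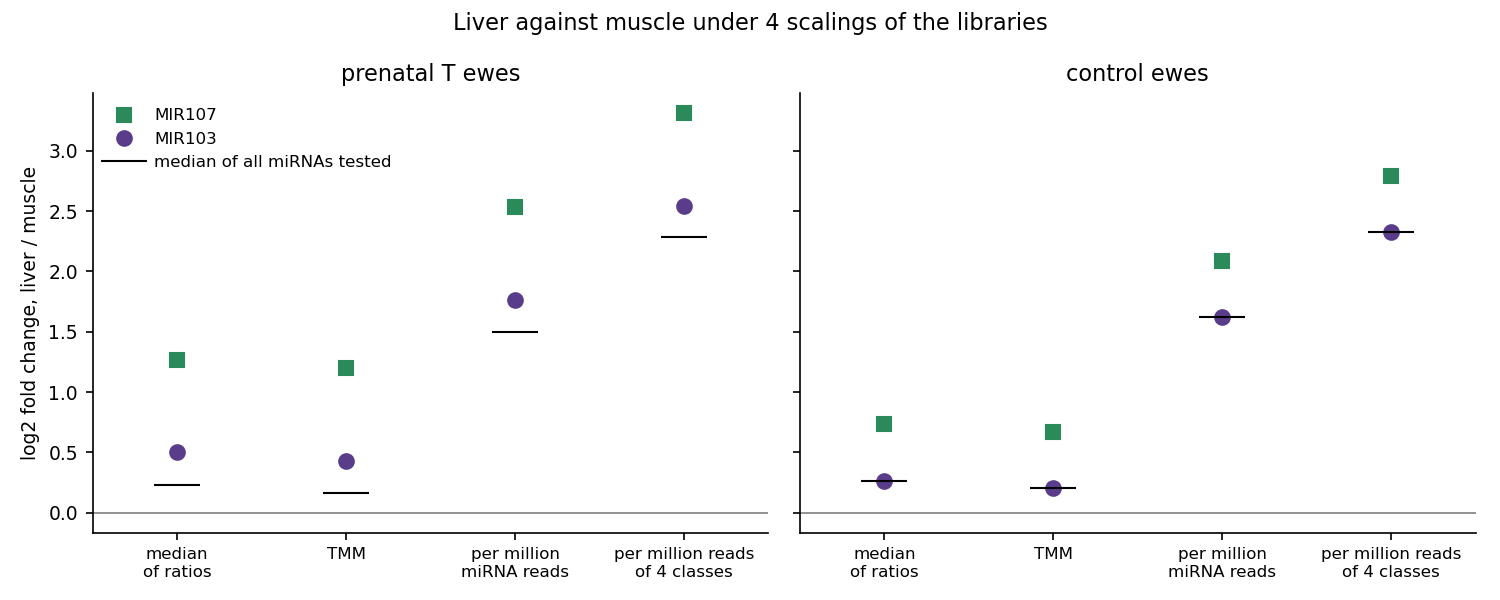
Log2 fold change, liver over muscle (vertical axis), of MIR107 (squares) and MIR103 (circles) under 4 scalings of the libraries, with the median of all miRNAs tested as a line, in prenatal T ewes on the left and control ewes on the right. The points shift with the median, because rescaling whole libraries moves all miRNAs nearly alike. MIR107 lies 1.03 to 1.04 above the median in prenatal T ewes and 0.46 to 0.47 in control ewes, and MIR103 lies on it in control ewes.

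The ratio of MIR103 to MIR107 within a library needs no scaling and was lower in liver than in muscle in all 8 ewes. In liver it was 1.71, 1.65, 1.43 and 1.43 in prenatal T ewes 48, 185, 233 and 255 and 2.00, 1.597, 1.67 and 1.64 in control ewes 98, 131, 132 and 201. In muscle it was 2.56, 2.64, 2.37 and 3.10 in the same prenatal T ewes and 2.29, 2.81, 2.37 and 2.08 in the same control ewes. Every liver thus lay below every muscle, with the highest liver at 2.00 and the lowest muscle at 2.08. MIR107 made up the larger part of the pair's reads in no library. Within liver, the library set 1 livers of ewes 98 and 48 had the highest ratios, 2.00 and 1.71, and set 2 livers spanned 1.43 to 1.67. Within muscle the order was the other way, with the only set 2 muscle, that of ewe 255, highest at 3.10.

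The mean ratio was 1.64 ± 0.178 in liver and 2.53 ± 0.321 in muscle (SD, n = 8 each), and the paired log2 difference was -0.62 ± 0.28 (SD of 8 ewes), a liver ratio 0.651 times that of muscle. The exact two-sided sign-flip permutation test over ewes gave p = 0.0078, the smallest that 256 assignments can give, and 0.0234 after adjustment over the 3 ratio tests. Set 1 alone, with 2 livers and 7 muscles, gave -0.40 (exact permutation p = 0.0278, the smallest that 36 assignments can give). That test did not use the pairing, though the muscles of both these ewes, 48 and 98, were among the 7. The 3 ewes with both libraries in the same set differed by -0.58 (ewe 48), -1.11 (ewe 255) and -0.20 (ewe 98). Most livers were in set 2 and most muscles in set 1; within set 2 there was 1 muscle, so no test could be made there.

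Between prenatal T and control ewes the ratio of MIR103 to MIR107 passed the test in neither tissue. It averaged 1.56 ± 0.148 in prenatal T livers and 1.73 ± 0.183 in control livers (log2 difference -0.15, exact permutation p = 0.257), and 2.67 ± 0.308 in prenatal T muscles and 2.39 ± 0.307 in control muscles (0.16, exact permutation p = 0.229; SD, n = 4 each; two-sided, with 0.0286 the smallest p that 70 assignments can give). Adjusted over the 3 ratio tests both p-values were 0.257. Without the liver of ewe 98 the liver difference shrank to -0.075 (exact permutation p = 0.4). Without the muscle of ewe 255 the muscle difference shrank to 0.085 (exact permutation p = 0.514). Within library set 2 the liver difference was -0.12 (exact permutation p = 0.3, with 0.1 the smallest possible). MIR103 made up 60.8% ± 2.26 of the pair's reads in prenatal T livers, 63.2% ± 2.32 in control livers, 72.6% ± 2.21 in prenatal T muscles and 70.3% ± 2.58 in control muscles (SD, n = 4 each).

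**Figure D4:**
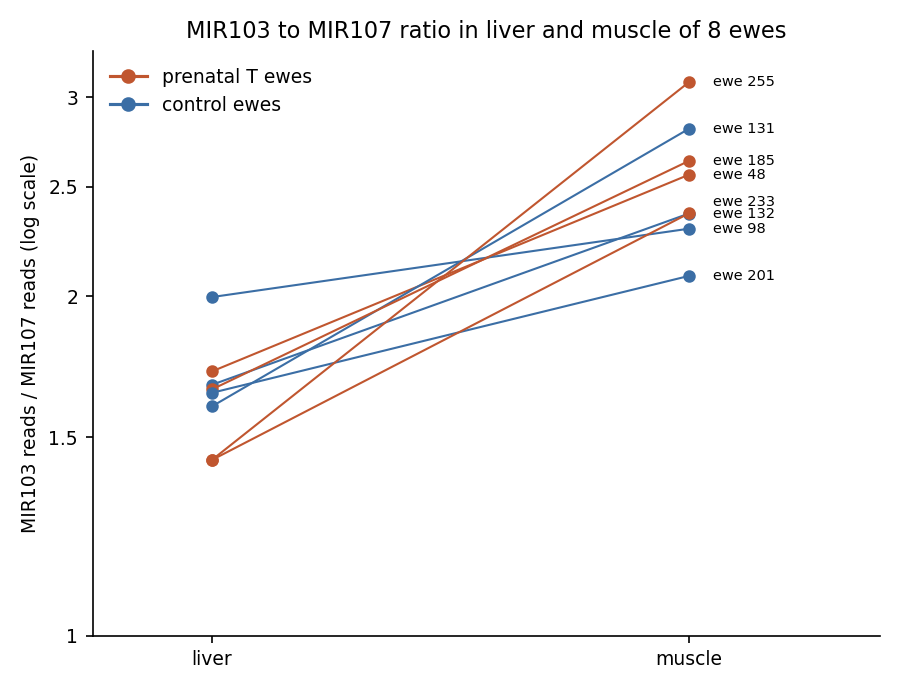
Ratio of MIR103 to MIR107 reads (vertical axis, log scale) in the liver and muscle of each ewe, with a line joining both tissues of an animal, prenatal T ewes in orange and control ewes in blue. All 8 lines rise to the right: livers span 1.43 to 2.00 and muscles 2.08 to 3.10.

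Over all 16 libraries MIR103 and MIR107 resembled each other more closely than either resembled any other miRNA, but not within each tissue. Over the deviations of log2 values from group means, Pearson's r between MIR103 and MIR107 was 0.894 in 16 libraries, the highest of 63 miRNAs for either; the points share library and scale factor, and r is given as a description. Next for MIR103 came MIR133 (0.799) and MIR30B (0.767), and for MIR107 MIR17 (0.793) and MIR380 (0.774). Within the 8 livers r was 0.885, the 4th highest for MIR103, below MIR133 (0.895) and MIR30B (0.893) among others, and the 2nd highest for MIR107. Within the 8 muscles it was 0.936, the 2nd highest for MIR103 and the 3rd for MIR107. The likeness rested in part on the libraries that stood apart. Without the liver of ewe 98 and the muscle of ewe 255, r between MIR103 and MIR107 was 0.594 over 14 libraries, the 2nd highest for each, while MIR133 and MIR30B stood at -0.080 and -0.025 with MIR103, and MIR17 and MIR380 at 0.091 and 0.516 with MIR107.

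Other miRNAs known from work on insulin and glucose gave the setting. Of 27 listed names, 11 rows were present, MIR103 and MIR107 included, and none was called for prenatal T in either tissue. MIR29B-1 and MIR29B-2, whose reads are equal in every library, count as 2 rows in these tallies but are 1 measurement. In liver 7 of 11 means were higher and 4 lower in prenatal T ewes, with a median log2 change of 0.012 beside 0.0052 over all miRNAs. The smallest p-values in liver were those of MIR29A and MIR107. MIR29A, which dampens insulin signalling in rodent cells, had a log2 change of 0.15 (limma adjusted p = 0.959). In muscle 10 of 10 means were lower, MIR103 and MIR107 among them (median -0.13 beside -0.045 over all 64 miRNAs, of which 37 were lower). Without the muscle of ewe 255 the split was 5 higher and 5 lower, with a median of 0.0040 beside 0.0045 over all. The smallest p-values in muscle were those of MIR143 (-0.51; limma adjusted p = 0.559), a miRNA of smooth muscle and stroma that impairs insulin action in mouse liver, and MIR152 (-0.31; limma adjusted p = 0.778).

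Between tissues, the list held 4 calls higher and 1 lower in liver in prenatal T ewes, and 3 higher and 1 lower in control ewes. Besides MIR107, MIR152 was higher in liver by 3.03 and 2.77 (log2; prenatal T and control ewes), and so were MIR200A, an epithelial miRNA near 0 in muscle with 0 to 3.44 normalised reads a library, and, in prenatal T ewes, MIR143 (0.58, limma adjusted p = 0.0250). MIR22, which is abundant in striated muscle, was called lower in liver on the main scale, with log2 differences of -1.17 and -1.26. Scaled to total miRNA reads it stood at 0.10 in both sets of ewes and was not called (limma adjusted p = 0.585 and 0.592). Subtracting the median over all miRNAs makes the scalings agree by construction. MIR22 then stood at -1.40 and -1.52 on the main scale and -1.39 and -1.52 scaled to total miRNA reads (prenatal T and control ewes). MIR16B was the only one of 10 listed names of the miR-15/16 family, whose seed overlaps that of miR-103 and miR-107, with a row. Its prenatal T change was -0.24 in liver and -0.028 in muscle (limma adjusted p = 0.959 and 0.936). Its tissue difference in prenatal T ewes was -0.53 (limma adjusted p = 0.0350) on the main scale and 0.74 scaled to total miRNA reads, and in control ewes -0.37 (limma adjusted p = 0.128) and 0.99. With the median over all miRNAs subtracted, MIR16B stood at -0.76 in prenatal T ewes and -0.64 in control ewes on both scales, again by construction. MIR107, MIR152 and MIR200A were called higher in liver under each of the 4 scalings in both sets of ewes.

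Markers of other cell types were set beside the pair. The stromal and endothelial markers present were 4 of 7 names, MIR10B, MIR143, MIR21 and MIR199A. In livers they summed to 9.86% to 14.03% of miRNA reads in prenatal T ewes and 8.47% to 12.9% in control ewes. In muscles, where MIR133 lowers the share of most other miRNAs, they summed to 2.13% to 2.93% and 2.82% to 4.15%. The sum hides a split. On the common scale 3 were higher and 1 lower in liver in both sets of ewes, with MIR10B at log2 -4.53 in prenatal T ewes. The leukocyte marker MIR150, 1 of 4 names, took 0.0878% to 0.155% of miRNA reads in prenatal T livers and 0.106% to 0.184% in control livers, and 0.189% to 0.531% in prenatal T muscles and 0.293% to 0.386% in control muscles. MIR16B, 1 of 4 erythroid names, took 0.300% to 0.607% in prenatal T livers, 0.465% to 0.606% in control livers, 0.207% to 0.474% in prenatal T muscles and 0.224% to 0.288% in control muscles. Epithelial markers (3 of 6 names) summed to 0.408% to 0.821% in prenatal T livers, 0.452% to 1.07% in control livers, and at most 0.00356% in any muscle. Liver markers (2 of 5 names) reached 0.323% in prenatal T muscles and 0.351% in control muscles. MIR133, 1 of 8 muscle names, stood at 0.0290% to 0.0470% in prenatal T livers and 0.0353% to 0.227% in control livers, the highest in ewe 98, where MIR103 and MIR107 lay 0.70 and 0.35 above the other livers (log2). The part of cell make-up in the values of MIR103 and MIR107 was not tested.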

How the data were processed

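Per the labels' protocols, total RNA was extracted with Trizol and small RNA libraries were made with a NEBNext kit. Tools listed in the submitters' processing notes are cutadapt 3.2, featureCounts 1.6.1 and STAR 2.6.0c. Settings and genome build were not given in the sources used here. Each value deposited by the authors is a signal in normalised reads: each library's reads of an RNA class over its own factor. For miRNAs the values show that the authors scaled within a tissue. Whether the other RNA classes were scaled in that way was not checked. Reads were recovered from the deposited values: 100% of 1432 miRNA values came out whole within 0.001.

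Prenatal T and control were compared with limma 3.58.1 (variance trend) in R 4.3.3 on log2(value + 1), for miRNAs with a mean of at least 5, with Benjamini-Hochberg adjustment over all tested and a threshold of 0.05. Fold changes on this scale understate those of low miRNAs. Tissues were compared in a fit of 4 groups on recovered reads scaled by median-of-ratios factors over 16 libraries. Ratios were tested by exact permutation in Python 3.11.15 with scipy 1.17.1. Of these, the limma comparison of prenatal T and control within a tissue was tested on simulated reads. edgeR 4.0.16 and DESeq2 1.42.0 on recovered reads, other scalings, filters and pseudocounts, and leaving out each library were alternatives; values within library set 1 for the tissue contrasts, for the difference between tissues and for the ratio, of the ratio within set 2, and of the insulin list without ewe 255 were added after seeing the data.

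Same-numbered liver and muscle libraries came from the same ewe by the labels, and the ewe as a block had a consensus correlation of 0.103. Libraries are separate animals within a tissue. Intervals on shares cover counting error only, since reads carry no molecular identifiers. Beside the pair, the text names listed miRNAs called in a contrast or else the 2 with the smallest p per tissue, the 3 miRNAs most like each member, and its neighbours in abundance. The members and lists were chosen with earlier results of these data known. Annotation from RefSeq (105 of 105 symbols matched) gave names and neighbouring genes.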

Additional observations from a re-analysis of the deposited data

Results flagged for a closer look

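MIR103 in the liver of control ewe 98, at 1324 normalised reads, lay farther from the other 3 control livers than Dixon's 95% critical value allows, as a share of the group's range. MIR103 in the muscle of control ewe 201, at 268 normalised reads, lay below the other 3 control muscles by the same measure. These were 2 of 12 sets of values examined: MIR103, MIR107 and their ratio in each of the 4 groups. The ratio is made from the other values, so the sets are not independent; chance alone passes the critical value in about 5% of sets.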

How the results depend on the processing

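Of 277 alternative values, 253 kept their direction and side of the threshold, or for counts stayed within 1.5 times; 13 changed sign, 9 passed the threshold anew, 1 lost it and 1 count moved. For the ratio, the side of the threshold was judged on the permutation p without adjustment over the 3 ratio tests. The log2 change of MIR103 in liver was -0.0053 with edgeR, -0.053 with DESeq2, and -0.088 to 0.20 leaving out each library. In muscle it was -0.32 to 0.050 leaving out each library. The 0.050 came without ewe 255, the only muscle of set 2, so library set as a covariate and set 1 alone gave that same value. These count as separate alternatives in the tally, and a fit of MIR103 and MIR107 summed was entered under each member. The difference between tissues was -0.62 for MIR103 and -0.32 for MIR107 within set 1, where limma called 6 miRNAs against 0 from 1 liver a group, with the spread taken from the muscles and so no replicate check in liver, and -0.0094 to 0.36 for MIR103 leaving out each ewe. MIR103 in liver over muscle passed the threshold in prenatal T ewes with the replicate block (0.50), scaled to total miRNA reads (1.77), the same without MIR133 (0.74) and scaled to the total of the 4 classes (2.55), and gave 0.30 to 0.64 leaving out each ewe, past the threshold only without ewe 48. In control ewes it passed at 1.62, 0.55 and 2.33 under those scalings; its 0.71 within set 1, also past it, rests on 1 control liver, that of ewe 98, with the spread taken from the muscles. MIR107 in control ewes gave 0.67 to 0.79 leaving out each ewe. The replicate block changed no other call of the pair; for the ratio, no replicate block gave -0.62 (exact permutation p = 0.00016). The causes were not tested. With 4 libraries a group, changes inside the intervals given could not be resolved, and counts of 65 and 21 limit the muscle of ewe 255.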
